A study of Homo sapiens with 30 samples.

Results

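The 10 genes described here are those of the coactivators YAP1 and TAZ (gene WWTR1), of the DNA-binding factors TEAD1, TEAD2, TEAD3 and TEAD4, and 4 described targets of these proteins, CTGF, CYR61, ANKRD1 and AMOTL2. They were taken by exact symbol from a time-course table of 41495 entries, where each of the 10 has a row, and from the tables of 2 cell sorts, which list 6 and 9 of them. RNA was sequenced while H7, an established line of human embryonic stem cells, was turned into cardiomyocytes with 12 µM CHIR99021, a GSK3 inhibitor that switches WNT signalling on, for 24 hours and then 5 µM IWP4, which blocks the release of WNT proteins, for 2 days. The time course runs from untreated stem cells (hESC) over days 1, 2, 3, 4, 5, 6, 8, 10 and 15 of treated, unsorted culture (D1 to D15) to day-31 cardiomyocytes (CM) purified on Percoll density gradients. At D3, ROR2-positive cells (PMESO) were sorted from ROR2-negative cells. At D4, cells positive for ROR2 and PDGFRa (CMESO) were sorted from cells positive for ROR2 and negative for PDGFRa. Each of the 15 groups had 2 libraries, all groups derive from this line with no genetic change named in the labels, and whether the 2 libraries of a pair were grown apart is not stated in the labels.

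YAP1 and TAZ do not bind DNA themselves. The Hippo kinases MST and LATS phosphorylate them and keep them out of the nucleus. When they are not phosphorylated they enter the nucleus, bind TEAD factors on DNA and switch on genes of growth and matrix. The pathway is read by cells through their density, shape and tension, and in the mouse heart YAP is needed for cardiomyocytes to divide in the embryo. The data are RNA levels, so neither phosphorylation nor the place of the proteins in the cell was measured.

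The time-course table gives 1 FPKM value (sequenced fragments scaled to transcript length and library size) per gene and time point, which stands for 2 libraries. It has no error, neighbouring levels of a gene cannot be told apart by their error, and no test was possible. A gene was called higher or lower where log2(FPKM + 1) differed by at least 1, a 2-fold difference, among the 21715 genes that reached 1 FPKM at some time point. All 10 members passed that minimum. The summed FPKM of the columns ranged from 617580 at D15 to 1429860 in hESC, the read depth is unknown, and rescaling the columns by the median ratio to their geometric mean over genes moved the log2 differences by about 0.24 for D1 against hESC, -0.21 for D4 against D1, 0.06 for D10 against D4, -0.22 for D15 against D10, 0.25 for CM against D15 and 0.12 for CM against hESC. After that rescaling the median difference over all kept genes was 0.13 for D1 against hESC, -0.21 for D15 against D10 and 0.32 for CM against D15, further from 0 than before it. The labelled cell types carried their markers: the summed FPKM of 8 cardiomyocyte markers was 9657 in CM and 13.1 in hESC, and that of 6 pluripotency markers was 5.61 in CM and 2926 in hESC. Summed FPKM of 9 stromal and smooth muscle markers was 4025 at D15 and 2130 in CM. Of the 9, 5 were called lower in CM (4.07% of all kept genes) and none higher (7.23%). The sum mixes genes that moved apart: COL3A1 was at 2037 FPKM at D15 and 609 in CM, and ACTA2 at 262 and 509. CM were not free of such RNA, and which cells it came from was not tested. Over the course the sums ran from 10.9 to 67.2 FPKM for 3 endothelial markers (PECAM1 was not found under that symbol), from 1.42 to 25.9 for 4 epicardial markers and from 2.93 to 43.6 for 5 endoderm markers. KDR, also a receptor of early mesoderm, made 59.4 of the 60.6 FPKM of the endothelial sum in hESC and 64.2 of the 67.2 at D4. CDH5 did not exceed 2.27 FPKM and TEK 4.46. In unsorted culture, fewer cells of a type and less RNA per cell cannot be told apart.

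TEAD factors recognise a short DNA word, the M-CAT element, whose core is GGAATG. Read on the opposite strand, the same word is CATTCC. Promoter windows were available for 7 of the 10 members, in 10 windows because some genes have more than 1 start. They were read from the RefSeq annotation of GRCh38.p14, and the 250 bases before each start were searched on both strands. TEAD1, TEAD4 and CYR61 were not in that table. The 3 windows below are shown because they belong to targets and hold the word, which is in capitals. Each is printed 5′ to 3′ along its gene, on the minus strand in every case. CTGF is listed as CCN2 there, at chr6:131951373-131951622. ANKRD1 is at chr10:90921088-90921337 and the second start of AMOTL2 at chr3:134374448-134374697.
CTGF: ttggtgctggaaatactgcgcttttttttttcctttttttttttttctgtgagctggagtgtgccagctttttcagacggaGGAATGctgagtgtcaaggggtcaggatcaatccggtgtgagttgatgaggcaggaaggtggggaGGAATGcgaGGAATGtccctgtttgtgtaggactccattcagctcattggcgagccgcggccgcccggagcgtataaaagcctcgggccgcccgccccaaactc
ANKRD1: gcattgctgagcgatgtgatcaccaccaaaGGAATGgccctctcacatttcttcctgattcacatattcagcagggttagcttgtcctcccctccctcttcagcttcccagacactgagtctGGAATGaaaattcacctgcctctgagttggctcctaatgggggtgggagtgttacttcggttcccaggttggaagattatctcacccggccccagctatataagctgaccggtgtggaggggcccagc
AMOTL2: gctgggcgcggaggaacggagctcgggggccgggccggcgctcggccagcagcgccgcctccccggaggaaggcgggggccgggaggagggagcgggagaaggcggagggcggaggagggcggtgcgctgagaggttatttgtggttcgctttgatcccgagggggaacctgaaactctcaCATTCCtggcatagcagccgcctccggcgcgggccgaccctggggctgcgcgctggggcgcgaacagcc

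The CTGF window held GGAATG 3 times, beginning at positions -169, -104 and -95 from the transcript start, and the last pair lay close together. ANKRD1 held it 2 times, at -220 and -128. AMOTL2 held CATTCC 1 time, at -69, before its second start and none before its first. YAP1 held GGAATG 1 time, at -162, and no match was found in the windows of WWTR1, TEAD2 and TEAD3. Of 35116 promoter windows of this length, 11.9% held the word, 0.940% held it 2 or more times and 0.0826% (29 windows) 3 or more times. A second word, TGANTCA with any base at N, is a loose form of the site of the AP-1 factors FOS and JUN, which usually has C or G at N. It does not overlap GGAATG in these windows. The loose form was found 1 time in the members, in ANKRD1 at -195, and in 6.57% of all windows. The ANKRD1 match reads TGATTCA and so lacks the usual C or G. A match of letters is a description of the window and does not show that a factor was bound.

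**Figure D1:**
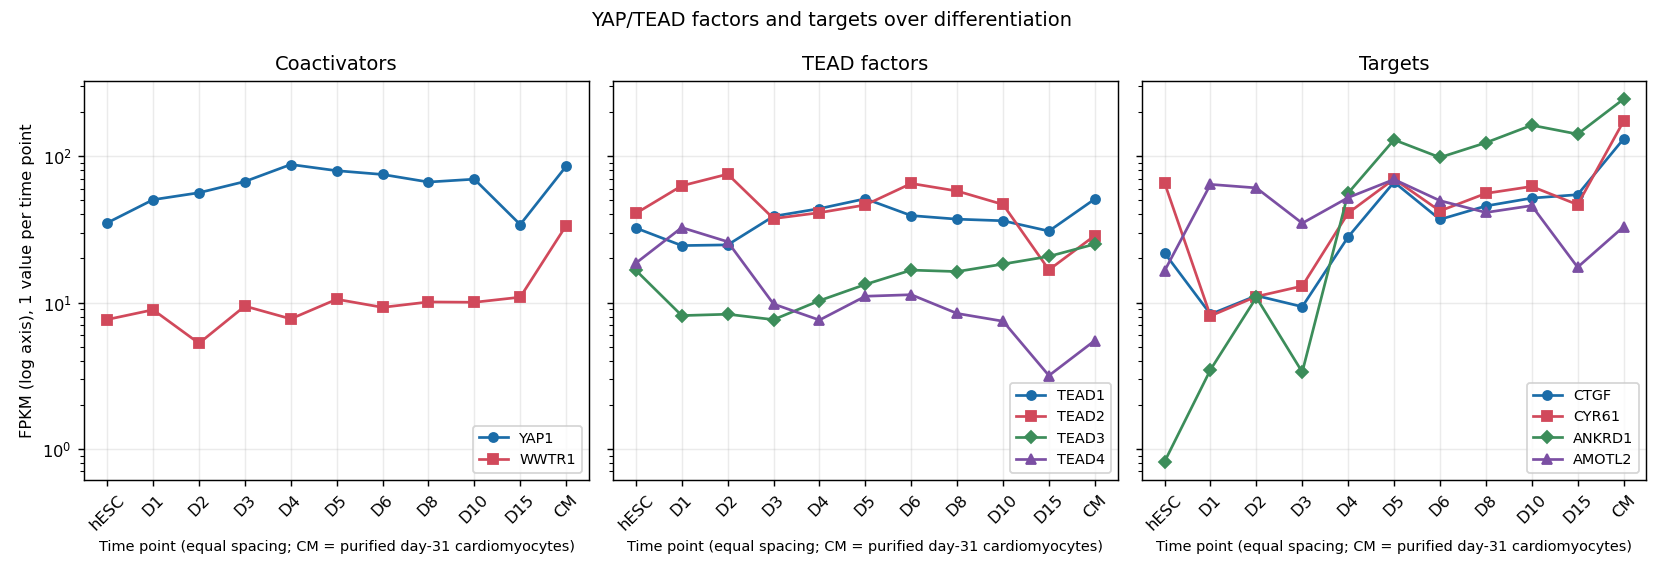
FPKM on a log axis against time point, equally spaced, for the coactivators, the TEAD factors and the targets. Each point is the 1 deposited value of that time point, and the lines join the points of a gene. ANKRD1 is at 246 FPKM in CM and 0.817 in hESC, whereas YAP1 stays between 34.1 and 87.8.

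YAP1 RNA was present throughout. It was at 35.0 FPKM in hESC, 50.5 at D1, 56.3 at D2, 67.2 at D3, 87.8 at D4, 79.6 at D5, 75.1 at D6, 66.6 at D8, 69.7 at D10, 34.1 at D15 and 85.4 in CM. The highest level, at D4, was 2.57 times the lowest, at D15, and D15 and hESC were the 2 low points. The locus of YAP1 in the authors' sort tables, in build hg19, is chr11:101981192-102104154. An antisense gene shares 628 exonic bases with it in GENCODE 29, and whether the authors' counting used strand is not stated.

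WWTR1, which encodes TAZ, was the less abundant coactivator at all 11 time points. Its level was 7.65 FPKM in hESC, 8.92 at D1, 5.27 at D2, 9.45 at D3, 7.73 at D4, 10.5 at D5, 9.27 at D6, 10.1 at D8, 10.0 at D10, 10.9 at D15 and 33.6 in CM. It thus lay between 5.27 and 10.9 FPKM at the 10 time points before purified CM, where it stood apart. The ratio of YAP1 to WWTR1 FPKM was 11.4 at D4, 6.94 at D10 and 2.54 in CM, the lowest of the course. An antisense gene, WWTR1-AS1, shares 1233 exonic bases with WWTR1 in GENCODE 29. It was at 8.37 FPKM in CM, 4.51 at D15 and 4.03 in hESC. WWTR1-IT1, an intronic gene on the strand of WWTR1 without shared exonic bases, was at 4.24 FPKM in CM, 0.703 at D15 and 1.09 in hESC. Its part in the WWTR1 value was not tested. Without a strand setting, reads of the antisense gene cannot be told from those of WWTR1. The hg19 locus of WWTR1 is chr3:149235022-149454501.

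The TEAD genes together made 110 FPKM in CM and 108 in hESC, with 71.4 FPKM at D15 as the low and 135 at D2 as the high point. Within that sum the members took different shares over time. TEAD1, which in mice is needed for the growth of the heart wall, was at 32.3 FPKM in hESC, 24.5 at D1, 24.8 at D2, 38.9 at D3, 43.9 at D4, 51.2 at D5, 39.3 at D6, 37.1 at D8, 36.2 at D10, 30.8 at D15 and 51.0 in CM. It had the smallest span of the 10 members, 2.09-fold, and it made 46.3% of the TEAD sum in CM, against 29.9% in hESC. Its hg19 locus is chr11:12695969-12966298.

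TEAD2, known from early mouse embryos, was at 40.7 FPKM in hESC, 62.8 at D1, 75.4 at D2, 37.5 at D3, 41.1 at D4, 46.5 at D5, 65.1 at D6, 57.8 at D8, 46.8 at D10, 16.7 at D15 and 28.7 in CM. It was the most abundant TEAD in hESC and at D1, D2, D6, D8 and D10, with 56.1% of the sum at D2, and stood below TEAD1 and TEAD3 at D15. The neighbouring gene CD37 shares 351 exonic bases with it on the opposite strand and was at 7.32 FPKM in CM and 2.65 in hESC.

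TEAD4, which mouse embryos need to form the trophectoderm, was at 18.6 FPKM in hESC, 32.5 at D1, 26.0 at D2, 9.77 at D3, 7.59 at D4, 11.0 at D5, 11.3 at D6, 8.42 at D8, 7.45 at D10, 3.17 at D15 and 5.50 in CM. Levels were high up to D2 and low after it: the 3 highest values were those of D1, D2 and hESC. TEAD4 had the widest range of the TEAD genes, 10.3-fold. It made 17.2% of the TEAD sum in hESC, 25.4% at D1 and 4.99% in CM. Its hg19 locus in the authors' sort tables is chr12:3068496-3149839.

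TEAD3 followed another order, with 16.6 FPKM in hESC, 8.14 at D1, 8.32 at D2, 7.64 at D3, 10.3 at D4, 13.3 at D5, 16.7 at D6, 16.3 at D8, 18.3 at D10, 20.7 at D15 and 25.1 in CM. It was lowest from D1 to D3 and highest in CM, and its share of the TEAD sum was 22.7% in CM, against 15.3% in hESC. Its hg19 locus is chr6:35441374-35464853.

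**Figure D2:**
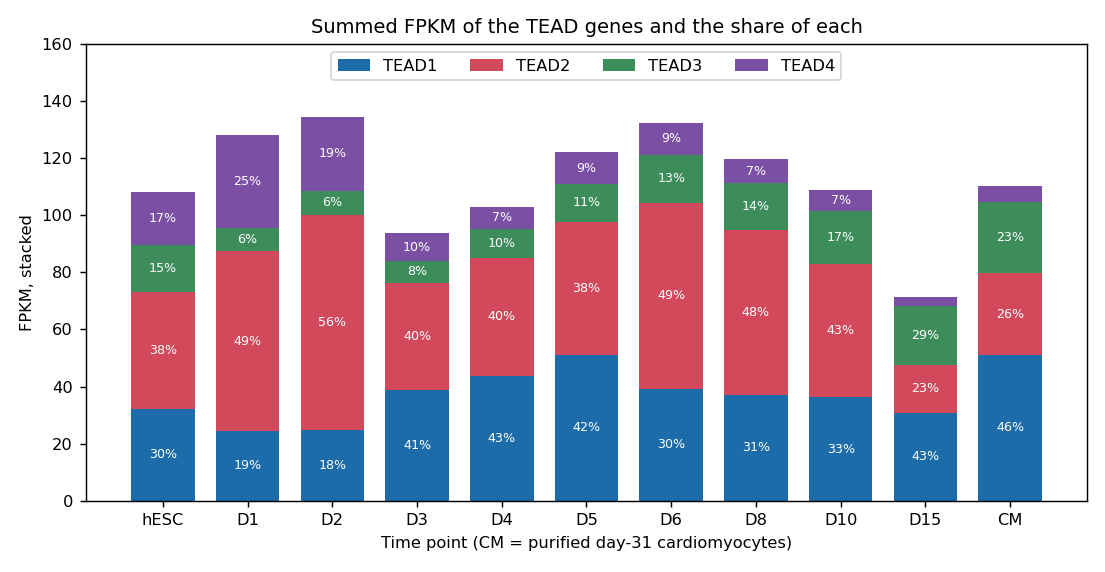
FPKM of the TEAD genes stacked for each time point, with the share of each gene in percent printed in its bar where there is room. TEAD2 and TEAD4 take most of the bar at D1 and D2, and TEAD1 and TEAD3 most of it at D15 and in CM.

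CTGF and CYR61, secreted matrix proteins of the CCN family, are the targets most often used to read YAP activity. CYR61 was at 65.7 FPKM in hESC, 8.10 at D1, 11.0 at D2, 13.0 at D3, 40.9 at D4, 69.8 at D5, 42.3 at D6, 55.7 at D8, 62.1 at D10, 46.7 at D15 and 173 in CM. CTGF was at 21.8 FPKM in hESC, 8.32 at D1, 11.1 at D2, 9.36 at D3, 28.1 at D4, 66.5 at D5, 37.0 at D6, 45.7 at D8, 51.7 at D10, 54.6 at D15 and 131 in CM. Both were lowest at D1 to D3, and both were highest in CM, where CYR61 stood 21.4-fold and CTGF 15.8-fold above its own lowest time point. Their ratio (CYR61 over CTGF) was 3.01 in hESC and between 0.855 and 1.46 at the other time points. The CTGF locus in the authors' table, chr6:132269316-132398533 in hg19, is 129218 bases long and so reaches far past this short gene. Whether other transcripts of that interval count in its value is not stated, and an antisense gene shares 195 exonic bases with it. CYR61 lies at chr1:86046444-86049645 in hg19.

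ANKRD1, an ankyrin-repeat protein of heart muscle that is found at the sarcomere and in the nucleus, had the widest span of the 10 genes. Its level was 0.817 FPKM in hESC, 3.47 at D1, 10.8 at D2, 3.35 at D3, 56.0 at D4, 130 at D5, 98.1 at D6, 124 at D8, 163 at D10, 142 at D15 and 246 in CM, a 300.4-fold range. All 7 values from D4 on lay above all 4 values before it. Its paralogs were low by comparison: ANKRD23 lay between 1.97 and 3.76 FPKM and ANKRD2 at or under 0.180 FPKM. ANKRD1 lies at chr10:92671853-92681033 in hg19.

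AMOTL2, a scaffold at cell junctions that binds YAP and is itself a target, was at 16.5 FPKM in hESC, 64.2 at D1, 60.7 at D2, 34.9 at D3, 52.1 at D4, 69.4 at D5, 49.7 at D6, 41.3 at D8, 45.9 at D10, 17.4 at D15 and 32.9 in CM. At D1, D2 and D3 its level was above that of hESC, while CTGF and CYR61 were below theirs. Like YAP1 and TEAD2 it was low at D15. It lies at chr3:134074716-134094321 in hg19, and the pseudogene RPL39P5 shares 187 exonic bases with it on the same strand.

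All 10 members differed by at least 2-fold between their highest and lowest time point, as did 84.7% of all kept genes and 90.3% of those that reached 5 FPKM. The share is near the background and is no result about these genes. With hESC, D15 and CM left out, 6 of the 10 still spanned 2-fold, as did 54.7% of all kept genes.

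On the first day, D1 against hESC, AMOTL2 (1.90 in log2) and ANKRD1 (1.30) were called higher and CYR61 (-2.87) and CTGF (-1.29) lower. TEAD3 (-0.95), TEAD4 (0.78), TEAD2 (0.61), YAP1 (0.51), TEAD1 (-0.39) and WWTR1 (0.20) stayed under 2-fold. These 4 calls among 10 compare with 23.1% of all kept genes called in either direction, 12.0% higher and 11.1% lower (28.4% either way among genes that reached 5 FPKM at some time point), and the 4 called were the targets. The median difference was 0.36 over the members and 0 over all kept genes. ANKRD1 rests on low levels, 3.47 FPKM at D1 and 0.817 in hESC.

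At D4 against D1, ANKRD1 (3.67), CYR61 (2.20) and CTGF (1.64) were called higher and TEAD4 (-1.96) lower. TEAD1 was at 0.81 and YAP1 at 0.79, under the threshold, and AMOTL2 at -0.29. The background was 21.1% called in either direction, 9.19% higher and 11.9% lower (27.7% either way among genes that reached 5 FPKM), and the medians were 0.55 for the members and 0.01 for all kept genes. For the 3 higher targets most of the difference lay in the last day. At D4 against D3, ANKRD1 (3.71), CYR61 (1.59) and CTGF (1.49) were called higher (13.1% of all kept genes called either way), while TEAD1 was at 0.17 and TEAD4 at -0.33. At D5 against D4, CTGF (1.22) and ANKRD1 (1.20) were higher again (4.94%). TEAD4 (-1.33) and ANKRD1 (-1.45) were lower at D3 against D2 (8.14%), and ANKRD1 was higher at D2 (10.8 FPKM) against D1 (3.47 FPKM), a step with 5.00% called.

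From D5 to D10 the members stayed within 2-fold from step to step: none was called at D6 against D5, D8 against D6 or D10 against D8, where 7.40%, 2.01% and 2.27% of kept genes were. At D10 against D4, ANKRD1 (1.52) was the called member, with CTGF at 0.86, TEAD3 at 0.77 and CYR61 at 0.59. The background was 8.84% either way, 5.49% higher and 3.35% lower (10.9% either way among genes that reached 5 FPKM), and the medians were 0.26 for the members and -0.00 for all kept genes.

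At D15 against D10, TEAD2 (-1.43), AMOTL2 (-1.35), TEAD4 (-1.02) and YAP1 (-1.01) were called lower, the last 2 just past the threshold. TEAD3 was at 0.17, WWTR1 at 0.11, CTGF at 0.08, ANKRD1 at -0.20, TEAD1 at -0.23 and CYR61 at -0.41. After rescaling, the small differences of TEAD3 (-0.04), WWTR1 (-0.10) and CTGF (-0.14) turned negative. The background was 15.8% either way, 6.32% higher and 9.51% lower (20.8% either way among genes that reached 5 FPKM), and the medians were -0.32 for the members and -0.04 for all kept genes. Stromal and smooth muscle markers moved over the same step, with a sum of 4025 FPKM at D15 and 1454 at D10 and 5 of 9 called higher. So did cardiomyocyte markers, with a sum of 6883 FPKM at D15 and 3154 at D10 and 6 of 8 called higher. In both lists none was called lower. D15 had the lowest summed FPKM of the course. The part of these markers in the result was not tested.

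In CM against D15, CYR61 (1.87), WWTR1 (1.54), YAP1 (1.30) and CTGF (1.25) were called higher and none lower, with 11.3% of kept genes called either way, 7.23% higher and 4.07% lower (13.9% either way among genes that reached 5 FPKM). All 10 differences were above 0. The share of all kept genes above 0 was not counted, and D15 had the lowest summed FPKM of the course. The median was 0.83 over the members, against 0.12 over all kept genes. This comparison joins time and purification, which cannot be told apart. When CM was set against D10 instead, WWTR1, CYR61 and CTGF were called higher, where 8.14% of all kept genes were, and YAP1, at 85.4 FPKM in CM and 69.7 at D10, was not.

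Between the ends of the course, CM against hESC, ANKRD1 (7.08), CTGF (2.53), WWTR1 (2.00), CYR61 (1.38) and YAP1 (1.26) were called higher and TEAD4 (-1.59) lower. AMOTL2 was at 0.96, TEAD1 at 0.64, TEAD3 at 0.57 and TEAD2 at -0.49. These 6 calls stand beside a background of 35.6% either way, 18.7% higher and 16.9% lower (43.0% either way among genes that reached 5 FPKM), and medians of 1.11 for the members and 0.03 for all kept genes. The comparison shares its hESC value with D1 against hESC and its CM value with CM against D15.

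**Figure D3:**
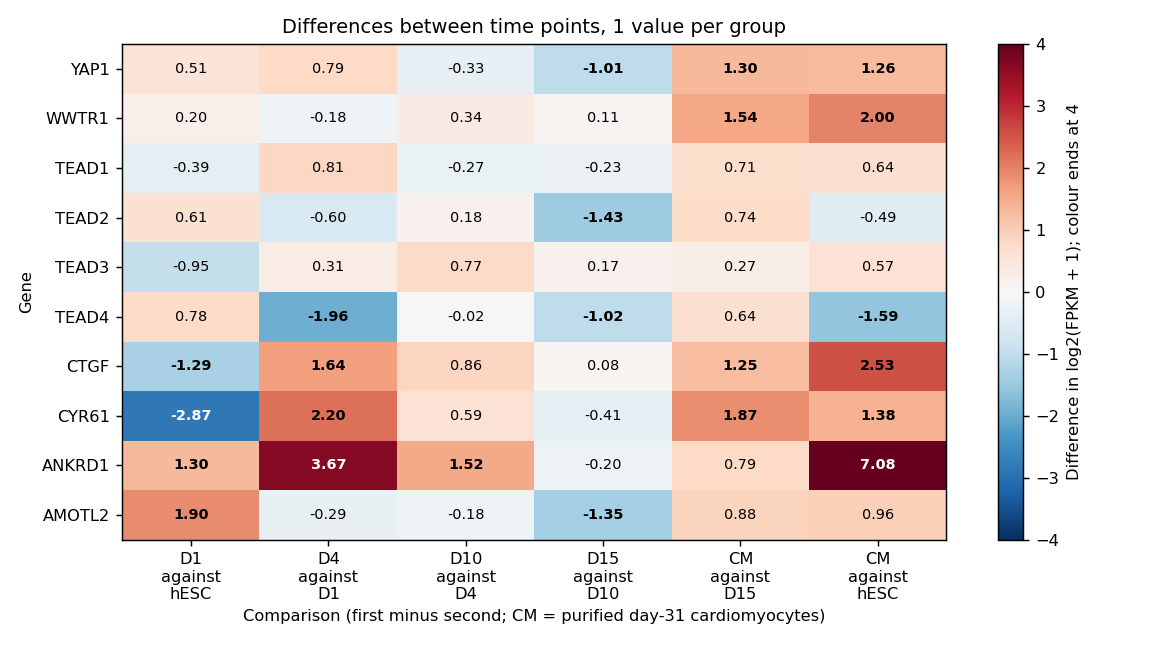
Differences in log2(FPKM + 1) for each gene (rows) in 6 comparisons (columns), with the first-named time point on top of the difference; red is higher, blue lower, colour ends at 4, and bold marks at least 2-fold. The 4 targets hold the calls of D1 against hESC, and TEAD2, AMOTL2, TEAD4 and YAP1 hold those of D15 against D10.

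The regulators of the pathway were read from a list of 15 Hippo kinases, adaptors and scaffolds, all measured. At D1 against hESC the YAP-binding scaffold AMOTL1 (23.7 FPKM at D1 and 3.55 in hESC) and the phosphatase PTPN14 (22.1 FPKM at D1 and 10.3 in hESC) were called higher, and the kinase LATS2 (3.14 FPKM at D1 and 18.1 in hESC) lower. Of all kept genes 12.0% were higher and 11.1% lower there, so these counts among 15 are no result about the list. From the lowest to the highest time point, the kinase STK3 spanned 1.02 and LATS1 0.74 on the log2 scale, against 2.21 for LATS2. AMOT, the founding member of the AMOTL2 family, was at 9.18 FPKM in hESC, 5.31 at D1, 49.5 at D4, 55.3 at D8, 17.7 at D15 and 20.7 in CM. FRMD6, an upstream activator of the kinases, was highest at D8 (56.8 FPKM) and at 7.57 FPKM at D15. At D15 against D10, 5 of the 15 were lower (9.51% of all kept genes) and none higher (6.32%), with a median of -0.56. In CM against D15 3 were higher (7.23% of all kept genes) and none lower (4.07%), with a median of 0.59. For the other comparisons the counts of higher and lower were 1 and 1 at D4 against D1, 1 and 0 at D10 against D4, and 2 and 2 in CM against hESC. The shares of all kept genes there were, in the same order, 9.19% and 11.9%, 5.49% and 3.35%, and 18.7% and 16.9%.

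VGLL proteins bind TEAD factors in place of YAP. VGLL4, described as a competitor of YAP, was at 14.5 FPKM in hESC, 66.0 at D1, 28.5 at D2, between 21.8 and 30.4 from D3 to D15, and 43.2 in CM. VGLL3 was at 10.8 FPKM in hESC, 4.17 at D1, 0.374 at D10 and 3.07 in CM. VGLL1 did not exceed 1.19 FPKM, and VGLL2 did not reach 1 FPKM.

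A second list held 18 other described YAP/TEAD targets, of which LATS2 and PTPN14 are also in the list of regulators. At D1 against hESC 12.0% of all kept genes were higher and 11.1% lower. Of the 18, 2 were higher (PTPN14 and FJX1), near that share, and 5 lower, with a median of -0.68. The lower ones included LATS2, the receptor AXL (3.89 FPKM at D1 and 19.6 in hESC), the kinase NUAK2 (5.39 FPKM at D1 and 20.8 in hESC) and IGFBP3, a carrier of insulin-like growth factors (2.76 FPKM at D1 and 10.1 in hESC). At D4 against D1 (9.19% of all kept genes higher, 11.9% lower) 7 were higher and none lower, with a median of 0.71. At D10 against D4 (5.49% and 3.35%) 6 were higher and 2 lower, with a median of 0.36. The growth factor TGFB2 had the widest span, at 0.117 FPKM in hESC, 10.2 at D4, 102 at D10 and 134 in CM. IGFBP3 was highest at D15 with 207 FPKM. At D15 against D10 (6.32% of all kept genes higher, 9.51% lower) 2 were higher and 3 lower (median 0.10). In CM against D15 (7.23% and 4.07%) 2 were higher and 1 lower (median -0.05). In CM against hESC (18.7% and 16.9%) 6 were higher and 3 lower (median 0.39). The CCN paralogs of CTGF and CYR61 stayed low: NOV reached 7.80 FPKM at D3 and WISP1 6.56 at D15.

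CTGF and CYR61 are also described as targets of serum response factor and as immediate early genes, which cells switch on within minutes of a stimulus. A list of 12 such genes was read beside them. Shares of all kept genes are in brackets. At D1 against hESC 11 of the 12 were lower (11.1%) and none higher (12.0%), with a median of -1.87 and a summed FPKM of 172 at D1 and 606 in hESC. At D4 against D1 7 were higher (9.19%) and 1 lower (11.9%), with a median of 1.97 and sums of 473 FPKM at D4 and 172 at D1. At D15 against D10 6 were lower (9.51%) and none higher (6.32%), with a median of -1.10 and sums of 313 FPKM at D15 and 582 at D10. There CTGF (0.08 in log2) and CYR61 (-0.41) stayed within 2-fold. In CM against D15, 11 were higher (7.23%) and none lower (4.07%), with a median of 1.97 and sums of 1153 FPKM in CM and 313 at D15. ATF3, a stress-induced factor of this list, was at 146 FPKM in hESC, 17.1 at D1, 6.09 at D15 and 158 in CM. EGR1 was at 17.3 FPKM in hESC, 5.07 at D1, 20.3 at D15 and 203 in CM. The part of this group in the CTGF and CYR61 values was not tested.

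**Figure D4:**
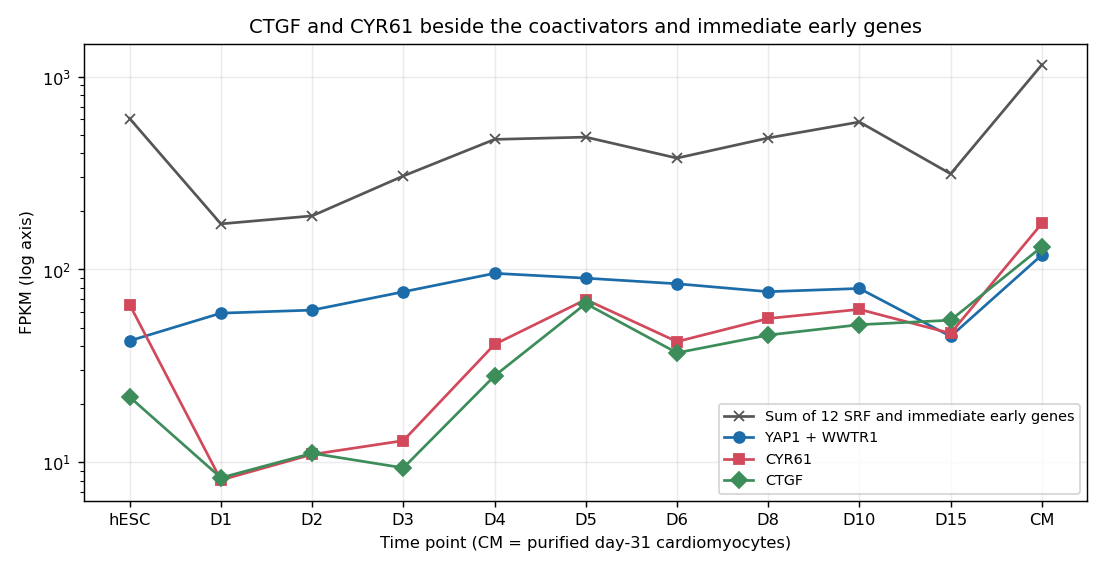
FPKM on a log axis against time point for CYR61, CTGF, the sum of YAP1 and WWTR1, and the sum of 12 serum response and immediate early genes. The coactivator sum is 59.4 FPKM at D1 and 42.7 in hESC, while CYR61, CTGF and the early genes are lower at D1 than in hESC; all 4 lines are highest in CM.

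Across the 11 time points the targets CTGF and CYR61 had the closest patterns among the members, with a Pearson r on log2(FPKM + 1) of 0.93, and of 0.98 without hESC. The r of TEAD3 was 0.89 with CYR61 and 0.88 with CTGF, and 0.89 and 0.92 without hESC. That of ANKRD1 was 0.86 with CTGF and 0.65 with CYR61, and 0.96 and 0.94 without hESC, so the order of the pairs below the closest one depended on the hESC column. TEAD4 ran opposite to CTGF (-0.73), and TEAD2 ran with TEAD4 (0.77) and AMOTL2 (0.72). The r of YAP1 was 0.31 with CTGF and 0.23 with CYR61, and 0.28 and 0.42 without hESC. These are descriptions over 11 points that share 1 cell line, 1 table and a common direction of differentiation. Among 11562 protein-coding genes of at least 5 FPKM at some time point, the nearest to CTGF and to CYR61 was GPRASP1 (r = 0.97 and 0.95), to ANKRD1 the kinase gene MYLK3 (0.98), to TEAD1 EGR1 (0.95), to TEAD2 NSL1 (0.96), to TEAD3 ABTB2 (0.98), to TEAD4 TTLL12 (0.98), to YAP1 MPND (0.98), to WWTR1 MTUS2 (0.94) and to AMOTL2 ZMYM4 (0.96). Of the 30 nearest genes (3 for each member), 6 were still among the nearest 3 when hESC was left out.

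The sorts compare cells of the same day, and there the authors' own test is available, for populations of 2 libraries each. The deposited tables list genes with a q-value under 0.05, so a gene that is missing cannot be read as equal. Their levels are not compared with those of the time course, which is a separate table. The receptors used for sorting followed the labels: in the authors' deposited table ROR2 was at 72.0 FPKM in PMESO and 5.90 in ROR2-negative cells, and PDGFRA at 303.9 FPKM in CMESO and 8.28 in PDGFRa-negative cells.

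In ROR2-positive cells of D3 (PMESO), 6 of the 10 members were listed, 4 higher and 2 lower, where about 27.9% of the genes tested were listed, 15.4% higher and 12.5% lower. The number of genes tested is an estimate from the ratio of q to p. Among protein-coding genes of at least 5 FPKM at D3, 26.6% were listed. In the authors' deposited table YAP1 was at 77.9 FPKM in PMESO and 43.9 in ROR2-negative cells (authors' log2 ratio 0.83, q = 0.000375). ANKRD1 was at 11.3 FPKM in PMESO and 6.61 in ROR2-negative cells in the authors' deposited table (0.77, q = 0.000375). AMOTL2 was at 75.2 FPKM in PMESO and 50.5 in ROR2-negative cells in the authors' deposited table (0.57, q = 0.00614). These 3 were higher in PMESO, as was TEAD3, at 10.8 FPKM in PMESO and 8.11 in ROR2-negative cells in the authors' deposited table (0.42, q = 0.00399). TEAD4 was lower, at 5.46 FPKM in PMESO and 10.2 in ROR2-negative cells in the authors' deposited table (-0.91, q = 0.000375). CTGF was lower too, at 19.9 FPKM in PMESO and 24.9 in ROR2-negative cells in the authors' deposited table (-0.33, q = 0.0225). None of the 6 reached 2-fold, which 7.86% of the genes tested did among those listed. Of the Hippo regulators 7 of 15 were listed, 5 higher and 2 lower, and the largest ratio was that of AMOTL1, with 32.0 FPKM in PMESO and 4.77 in ROR2-negative cells in the authors' deposited table.

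In PDGFRa-positive cells of D4 (CMESO), 9 of the 10 members were listed, 7 higher and 2 lower, where about 36.3% of the genes tested were listed, 17.2% higher and 19.0% lower. Among protein-coding genes of at least 5 FPKM at D4, 27.0% were listed. ANKRD1 had the largest ratio, with 208 FPKM in CMESO and 64.6 in PDGFRa-negative cells in the authors' deposited table (authors' log2 ratio 1.69, q = 0.000269). CYR61 was at 90.0 FPKM in CMESO and 39.4 in PDGFRa-negative cells in the authors' deposited table (1.19, q = 0.000269). For TEAD1 the authors' deposited table gave 82.4 FPKM in CMESO and 36.4 in PDGFRa-negative cells (1.18, q = 0.000269). Along with WWTR1, at 14.9 FPKM in CMESO and 6.89 in PDGFRa-negative cells in the authors' deposited table (1.11, q = 0.000269), these 3 passed 2-fold, as did 10.3% of the genes tested. TEAD3 (0.73, q = 0.000269), AMOTL2 (0.64, q = 0.0016) and CTGF (0.45, q = 0.000513) were higher by less than 2-fold in the authors' deposited table. Their levels there were 17.0, 89.2 and 48.4 FPKM in CMESO and, in the same order of genes, 10.3, 57.4 and 35.4 FPKM in PDGFRa-negative cells of the authors' deposited table. YAP1 was lower, at 72.7 FPKM in CMESO and 106 in PDGFRa-negative cells in the authors' deposited table (-0.55, q = 0.000964). TEAD4 was lower too, at 10.0 FPKM in CMESO and 16.5 in PDGFRa-negative cells in the authors' deposited table (-0.73, q = 0.000269).

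TEAD2 was listed in neither sort, and WWTR1, TEAD1 and CYR61 were not listed at D3. In the listed values, the coactivators stood on opposite sides at D4, with WWTR1 higher and YAP1 lower in CMESO. YAP1 was higher in the ROR2-positive cells of D3 and lower in the PDGFRa-positive cells of D4, and CTGF the reverse. The difference between the sorts was not tested. TEAD4 was lower, and TEAD3, ANKRD1 and AMOTL2 higher, in the positive cells of each sort.

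Of the 18 other targets, 12 were listed in the D4 sort, 10 higher and 2 lower in CMESO, and 11 in the D3 sort, 8 higher and 3 lower in PMESO. About 36.3% of the genes tested were listed in the D4 sort and 27.9% in the D3 sort. In CMESO the authors' deposited table gave TGFB2 at 41.8 FPKM and AXL at 24.7 FPKM, against 3.23 FPKM for TGFB2 and 7.21 for AXL in PDGFRa-negative cells. F3, tissue factor of blood clotting, was at 5.83 FPKM in CMESO and 33.1 in PDGFRa-negative cells in the authors' deposited table. Immediate early genes were listed too: 9 of 12 in the D4 sort, 7 higher and 2 lower in CMESO, among them ATF3 at 50.3 FPKM in CMESO and 10.9 in PDGFRa-negative cells in the authors' deposited table. In the D3 sort 7 of 12 were listed, 5 higher and 2 lower in PMESO. Of the Hippo regulators 5 of 15 were listed at D4, 3 higher and 2 lower in CMESO, near the share of the genes tested. Among them AMOT was at 53.6 FPKM in CMESO and 124 in PDGFRa-negative cells, and FRMD6 at 38.5 FPKM in CMESO and 16.3 in PDGFRa-negative cells, in the authors' deposited table.

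Markers of other cell types differed in the sorts as well, where about 27.9% (D3) and 36.3% (D4) of the genes tested were listed. In PMESO, 5 of 6 pluripotency markers were listed, all lower, with POU5F1 at 87.3 FPKM in PMESO and 449 in ROR2-negative cells in the authors' deposited table. All 6 mesoderm markers, which include the sorting receptor, were higher in PMESO, as were the 3 of 5 endoderm markers listed, with SOX17 at 12.5 FPKM in PMESO and 0.664 in ROR2-negative cells in the authors' deposited table. Of 8 cardiomyocyte markers 2 were listed and higher in PMESO, of 9 stromal and smooth muscle markers 5 were higher and 1 lower, and of 4 endothelial markers 1 was higher and 1 lower. In CMESO, 5 of 6 pluripotency markers were again listed, all lower, with POU5F1 at 9.30 FPKM in CMESO and 63.3 in PDGFRa-negative cells in the authors' deposited table. Of 5 endoderm markers 2 were higher and 2 lower in CMESO, with FOXA2 at 3.16 FPKM in CMESO and 23.0 in PDGFRa-negative cells in the authors' deposited table. The endothelial and early mesoderm receptor KDR was at 163 FPKM in CMESO and 4.18 in PDGFRa-negative cells in the authors' deposited table. Of 6 mesoderm markers 1, the sorting receptor PDGFRA, was higher and 2, T and EOMES, were lower in CMESO. Of 8 cardiomyocyte markers 5 were listed and higher, and of 9 stromal and smooth muscle markers 7 were higher and 1 lower. None of 4 epicardial markers was listed in either sort. The part of these genes in the member values was not tested.

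**Figure D5:**
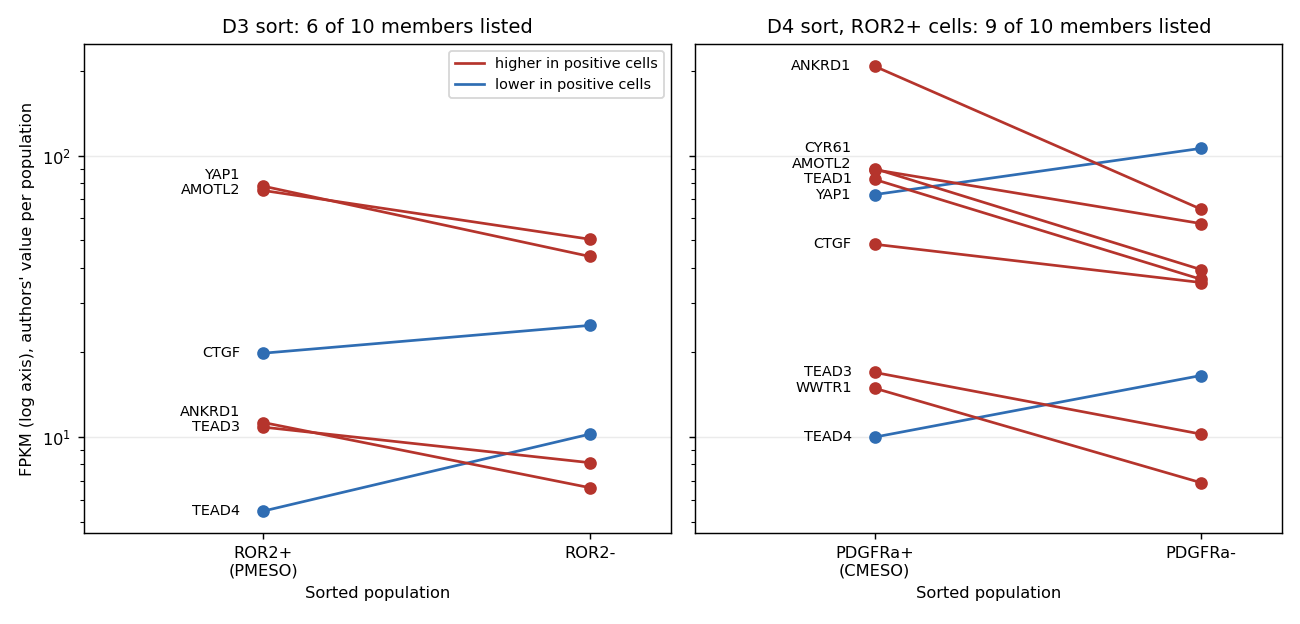
Authors' FPKM (log axis) of the listed members in the sort-positive population, left in each panel, and in its sort-negative counterpart, right. Each line joins the 2 values of a gene, red for higher and blue for lower in the positive cells. The lines of ANKRD1, TEAD3 and AMOTL2 are red and that of TEAD4 is blue in both panels, and those of YAP1 and CTGF change colour.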

How the data were processed

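Per the labels' protocols, ribosomal RNA was removed from 500 ng of total RNA, and libraries made with 10 PCR cycles were sequenced as paired reads of 100 cycles. Per the submitters' processing notes, the authors used Bowtie2 2.1.0.0, TopHat2 2.0.8b and Cufflinks with build hg19. Their gene annotation and strand setting were not given in those notes. The authors deposited FPKM values, 1 per time point (unit taken from these notes and the values). Per the file headers, each sort table holds the authors' FPKM of the negative and the positive population, a p-value, a q-value, a test score, and the authors' change as a linear ratio and as its log2. All listed q-values are under 0.05 (largest 0.0497 at D3 and 0.0499 at D4).

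From these values, differences in log2(FPKM + 1), counts past 2-fold, medians and Pearson correlations were computed with Python 3.11.15 (pandas 2.3.3, numpy 2.4.6) for genes of at least 1 FPKM at some time point. The rule for 2-fold calls and the rescaling were tried on simulated data with large changes and no noise. The sort, promoter and correlation steps were not tried in this way. Limma on single libraries was planned for libraries given apart and was not run, because the table has 1 value per time point. How the authors' p-values use the 2 libraries of a population is not given in the file headers, and the 2 libraries may be technical repeats. Members that share the lowest q-value of a sort share a p-value of 5e-05, the lowest of any member. The number of genes behind the authors' q-values was estimated from q over p by rank, at 16013 to 16649 (D3) and 11548 to 13305 (D4). Locus starts were turned to 1-based, since 1922 loci then match a GENCODE 29 gene length against 59 as listed. GENCODE 29 served for gene types and exon overlaps alone, and promoters were read from RefSeq on GRCh38.p14.

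The members and gene lists were chosen with earlier results of these data known. Named are all 10 members, from each list up to 4 genes each with the highest level or the widest span and any gene of a sort table, and the 3 nearest genes of each member by pattern. STK3, STK4 and PTPN14, outside this rule, were named after their values were seen. Alternatives were the pseudocount, the rescaling of columns, the filter, the fold, other time points as partners, and a stricter q-value.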

Additional observations from a re-analysis of the deposited data

How the results depend on the processing

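No paired analysis was possible because the tables give 1 value per time point and population, so the replicate numbers of the labels have no columns; for the same reason replicates were not left out in turn. With 1.5-fold in place of 2-fold calls, more members and more of all kept genes were called: 4 members and 22.9% of genes higher at D1 against hESC, 5 members and 19.9% higher and 2 members and 23.0% lower at D4 against D1, 4 members and 12.1% higher at D10 against D4 and 9 members and 23.5% higher in CM against D15. With other partners, D2 against D1 gave 1 higher and 0 lower (2.66% and 2.34% of genes), CM against D10 gave 3 higher and 0 lower (8.14% and 4.61%), and CM against D1 gave 2 lower (18.1%). The count of members spanning 2-fold was 6 without hESC, D15 and CM (54.7% of genes). In the PMESO sort, 0 higher and 0 lower members also passed 2-fold (4.75% and 3.11% of the genes tested), and 1 lower member had a q-value under 0.01 (8.46%); in the CMESO sort 4 higher and 0 lower passed 2-fold (5.66% and 4.65%). Of the 30 nearest genes, 6 were found again without hESC. The causes were not tested. No called member difference changed sign with another pseudocount, filter, fold or scaling. With D2 against D1 in place of D1 against hESC, differences of CTGF (0.38) and CYR61 (0.40) were above 0 and that of AMOTL2 (-0.08) below 0, opposite in sign to their called differences at D1 against hESC. Rescaling the columns called TEAD4 at D1 against hESC (1.00), ANKRD1 and AMOTL2 in CM against D15 (1.04 and 1.11) and AMOTL2 in CM against hESC (1.07), and a pseudocount of 0.1 called TEAD3 at D1 against hESC (-1.02). The other counts of members kept within 1.5 times their value. Read depth is unknown and no error could be given for the time course.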
